A study of Homo sapiens with 6 samples.

Results

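The markers described here are 10 genes used to recognise colorectal cancer stem cells or pluripotent cells: the surface proteins PROM1, ALCAM, CD24 and CD44, the aldehyde dehydrogenases ALDH1A1 and ALDH1A3, the regulators BMI1 and MSI1, and the pluripotency factors POU5F1 and KLF4. They were taken by symbol from the platform's probe annotation, with 1 feature kept per gene, the one with the highest mean over the 6 arrays. By this rule 7 of the 10 genes were measured, by 8 of the 33497 features analysed, and they stand among 12562 named genes. No feature named PROM1, ALCAM or ALDH1A1 was analysed here, so nothing is known of them from these values. The cells were SW480, an established human colorectal cancer line, carrying either a FOXC2 construct (FOXC2 cultures) or the empty pBabe control vector (pBabe cultures). FOXC2 is a forkhead transcription factor. Both were introduced with a retroviral system, and puromycin (0.5 μg/mL, 3 to 5 days) selected the carrying cells, so the controls carry vector and selection too. Each group held 3 separate cultures, grown with 10% serum to 90% confluence. The labels name no separate transductions, and the p-values therefore measure the spread between cultures of what may be 1 selected population per group.

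A cancer stem cell marker is a protein or activity by which a fraction of tumour cells able to renew and to found new tumours has been enriched. CD44, a receptor for the matrix sugar hyaluronan and a WNT target in the intestine, and CD24, a small sialylated mucin-like protein held by a lipid anchor, are targets of the antibodies used in cell sorting. Aldehyde dehydrogenases of the ALDH1A group make retinoic acid and give the enzyme activity scored in dye assays, BMI1 is a polycomb protein that keeps cell cycle inhibitors silent, and MSI1 is an RNA-binding protein of crypt stem cells. POU5F1 (OCT4) and KLF4 are reprogramming factors. KLF4 is also a factor of differentiated, post-mitotic cells in the normal colon. None of these genes marks a stem cell by its RNA alone, and an array of a whole culture cannot tell more cells with the RNA from more RNA per cell.

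CD44, BMI1 and POU5F1 were each higher in the FOXC2 cultures, by 1.43 to 1.62-fold, and the other 4 measured markers, CD24, ALDH1A3, MSI1 and KLF4, did not pass the test. Each feature was tested with limma on log2 intensity, with Benjamini-Hochberg adjustment over all 33497 features and a threshold of 0.05 on the adjusted p. Thus 3 of 7 markers passed, all of them higher and 0 lower, against a background of 28.4% of the 12562 named genes, 14.1% as higher and 14.3% as lower. Over 7 markers, a count of 3 cannot be set apart from that background. The median log2 fold change (FOXC2 minus pBabe) of the 7 markers was 0.23, against 0.03 over all named genes. The median size of the change, whatever its sign, was 0.23 for the markers and 0.26 for all named genes.

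**Figure D1:**
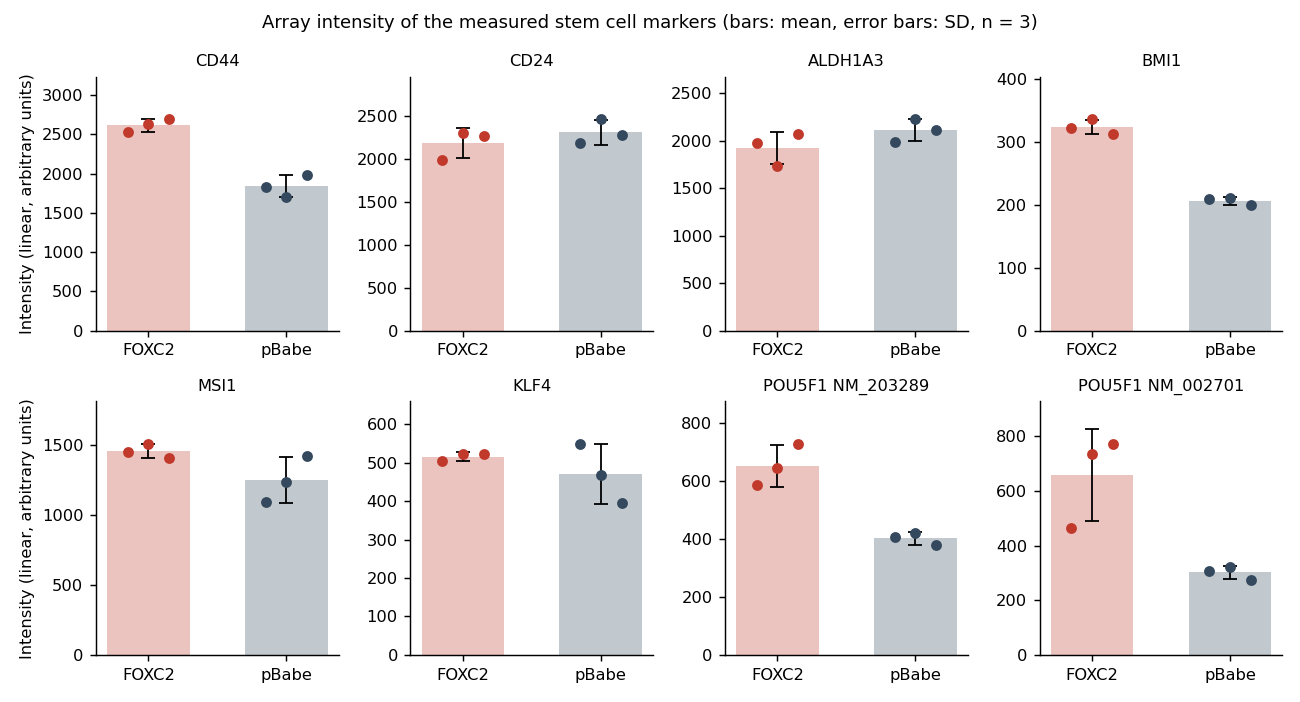
Array intensity (linear scale, arbitrary units, each panel with its own axis from 0) of the 8 features, with FOXC2 cultures left and pBabe cultures right. Points are arrays, bars are means and error bars are the SD of 3 arrays. The FOXC2 points lie above all pBabe points for CD44, BMI1 and both POU5F1 features, and the groups overlap for CD24, ALDH1A3, MSI1 and KLF4.

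The upstream sequences of the CD44 and BMI1 genes, which rose together, are shown to set their make-up side by side. Each is the 250 bases before the RefSeq transcript start in assembly GRCh38.p14, on the plus strand, 5′ to 3′, and capitals mark GC boxes (the word GGGCGG, bound by SP and KLF factors) and forkhead words. A forkhead word was GTAAACA, or its close form ATAAACA, or its close form GTAAATA, or its close form ATAAATA. Both kinds were searched on both strands, overlaps allowed, and in these windows no GC box overlapped a forkhead word.
CD44, chr11:35138921-35139170: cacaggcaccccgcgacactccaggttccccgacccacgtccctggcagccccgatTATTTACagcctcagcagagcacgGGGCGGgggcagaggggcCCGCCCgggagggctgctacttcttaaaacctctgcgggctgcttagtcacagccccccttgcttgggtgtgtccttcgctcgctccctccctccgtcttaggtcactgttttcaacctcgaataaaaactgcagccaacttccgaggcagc
BMI1, chr10:22320849-22321098: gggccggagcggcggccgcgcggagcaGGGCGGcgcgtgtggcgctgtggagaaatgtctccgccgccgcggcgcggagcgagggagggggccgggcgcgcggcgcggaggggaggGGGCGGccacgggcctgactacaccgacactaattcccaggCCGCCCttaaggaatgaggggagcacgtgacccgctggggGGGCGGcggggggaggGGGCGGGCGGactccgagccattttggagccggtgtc
The CD44 window held 1 forkhead word, TATTTAC, which is GTAAATA read on the other strand, starting 194 bases before the start, and 2 GC boxes. The BMI1 window shown held 6 GC boxes and 0 forkhead words, and that of a second BMI1 start held 5 and 0. Over the 35116 promoter windows in the table, 12.4% held a forkhead word and 42.6% a GC box in the same 250 bases. Windows were given for 8 of the 10 genes and 14 starts. POU5F1, which also rose, and MSI1 had no window. Of the genes not measured, a PROM1 window held 1 forkhead word, ATAAATA, and the windows of ALCAM and ALDH1A1 held 0. Of the measured markers that did not pass, ALDH1A3 had 6 GC boxes, KLF4 had 4, the 3 CD24 windows had 1, 0 and 1, and none of these windows had a forkhead word. These matches describe letters and are no evidence of binding.

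Among the surface markers, CD44 rose. Its intensities were 2523, 2630.2 and 2690.0 in FOXC2 cultures, against 1832, 1701 and 1978 in pBabe cultures. Every FOXC2 array lay above every pBabe array, and the spread within either group was small beside the gap. The log2 fold change was 0.51 ± 0.0928 (SE, n = 3 per group), or 1.43-fold with a 95% confidence interval of 1.22 to 1.66 (limma adjusted p 0.00886). The feature is 1 probe set for a gene with many splice forms, so the standard form of CD44 and its variant forms were not told apart.

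CD24 did not follow CD44. It had intensities of 1984, 2304 and 2265 in FOXC2 cultures, against 2182, 2461 and 2283 in pBabe cultures, which overlapped. Its log2 fold change was -0.08 with a 95% confidence interval of -0.32 to 0.16 (limma adjusted p 0.585), so a change as large as that of CD44 in the same direction lies outside the interval. CD24 has near-identical copies in the genome, and its probes may not tell them apart. The per-array difference of log2 CD44 and log2 CD24 was 0.35, 0.19 and 0.25 in FOXC2 cultures, against -0.25, -0.53 and -0.21 in pBabe cultures, without overlap. The group difference of this measure was 0.59, with an exact two-sided permutation p of 0.1, which is the smallest that 3 arrays against 3 can give. It was 1 of 3 such comparisons run, and the adjusted exact p was 0.1 for each of them.

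Of the aldehyde dehydrogenases, ALDH1A3, the isozyme reported to carry much of the ALDH activity of several tumour types, had intensities of 1973, 1732 and 2070 in FOXC2 cultures, against 1993, 2227 and 2113 in pBabe cultures. The groups overlapped, and the log2 fold change was -0.14 with a 95% confidence interval of -0.38 to 0.11 (limma adjusted p 0.368).

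BMI1, the polycomb ring-finger protein PCGF4, rose. Its intensities were 322, 336 and 313 in FOXC2 cultures, against 210, 210 and 199 in pBabe cultures. The groups lay well apart, and its standard error was the lowest of the 7 markers. The log2 fold change was 0.65 ± 0.0822 (SE), or 1.57-fold with a 95% confidence interval of 1.37 to 1.79 (limma adjusted p 0.00215). All 6 values were below their array's median feature, which lay between 895 and 913, and above the lowest value of the table, 50.002. How far they stood above background was not assessed, since detection calls were not used here.

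MSI1 (Musashi-1) had intensities of 1450, 1508 and 1409 in FOXC2 cultures, against 1089, 1238 and 1417 in pBabe cultures. pBabe replicate 3 lay inside the range of the FOXC2 arrays, and the other pBabe arrays lay below it. The log2 fold change was 0.23 with a 95% confidence interval of -0.05 to 0.51 (limma adjusted p 0.187). The estimate was 0.14 without pBabe replicate 1 and 0.33 without pBabe replicate 3.

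The pluripotency factor POU5F1 was represented by 2 features, named by the transcripts NM_203289 and NM_002701, and both rose. NM_002701 is the transcript of the nuclear OCT4A protein of pluripotent cells, and NM_203289 belongs to the OCT4B forms. The feature kept for its higher mean, NM_203289, had intensities of 586, 645 and 729 in FOXC2 cultures, against 408, 421 and 379 in pBabe cultures. FOXC2 replicate 1 was the lowest of its group and still above every pBabe array. Its log2 fold change was 0.69 ± 0.109 (SE), or 1.62-fold with a 95% confidence interval of 1.35 to 1.94 (limma adjusted p 0.00511).

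For NM_002701 the intensities were 464, 735 and 773 in FOXC2 cultures, against 307, 322 and 276 in pBabe cultures. FOXC2 replicate 1 was again the lowest of its group, by a wider gap than for the other feature, and the groups did not overlap. The log2 fold change was 1.09 ± 0.202 (SE), or 2.13-fold with a 95% confidence interval of 1.53 to 2.97 (limma adjusted p 0.00946), and it was 1.32 without FOXC2 replicate 1. The log2 difference of NM_002701 and NM_203289 was -0.34, 0.19 and 0.08 in FOXC2 cultures, against -0.41, -0.39 and -0.46 in pBabe cultures. The group difference was 0.40 (exact two-sided permutation p 0.1, the smallest possible), and the nearest arrays of the 2 groups were 0.05 apart. POU5F1 has processed pseudogenes of near-identical sequence, and the probes may not tell their RNA from that of POU5F1. All 12 values of both features were below their array's median.

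KLF4 had intensities of 503, 522 and 522 in FOXC2 cultures, against 549, 467 and 394 in pBabe cultures. Its pBabe arrays were the more scattered group and enclosed the FOXC2 arrays. The log2 fold change was 0.15 with a 95% confidence interval of -0.17 to 0.46 (limma adjusted p 0.444), and a rise as large as that estimated for POU5F1 lies outside it. Per array, log2 POU5F1 (NM_203289) minus log2 KLF4 was 0.22, 0.30 and 0.48 in FOXC2 cultures, against -0.43, -0.15 and -0.06 in pBabe cultures. The group difference was 0.55 (exact two-sided permutation p 0.1, the smallest possible).

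**Figure D2:**
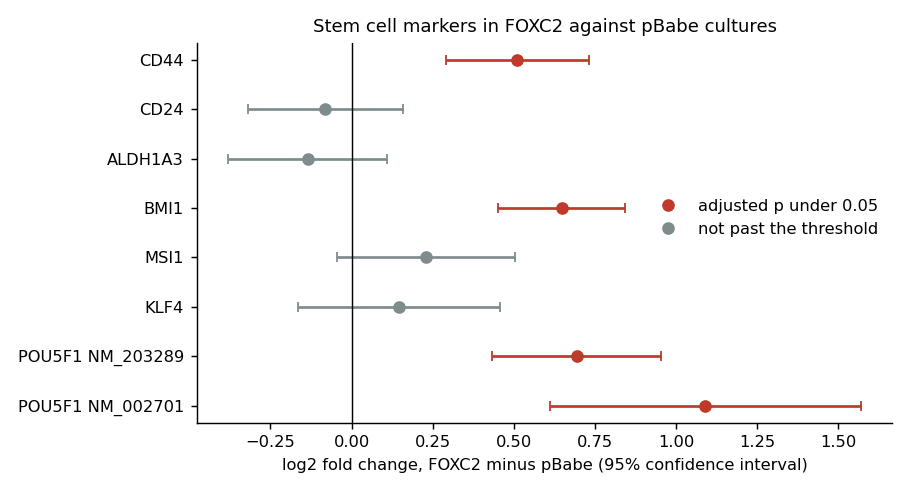
log2 fold change, FOXC2 minus pBabe, with its 95% confidence interval for the 8 features of the 7 measured markers. Red points passed at an adjusted p under 0.05 (CD44, BMI1 and both POU5F1 features) and grey points did not, and the grey intervals all span 0.

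The sizes of the rises were moderate within this comparison. Of the 12562 named genes, 6.91% had a higher log2 fold change than POU5F1, 7.89% a higher one than BMI1 and 12.0% a higher one than CD44. By the size of the change, whatever its sign, 14.4% exceeded POU5F1, 16.1% exceeded BMI1 and 23.5% exceeded CD44. The groups did not overlap for CD44, BMI1 and POU5F1, that is for 3 of 7 markers, against 48.4% of all named genes, 24.9% with the FOXC2 arrays above. Leaving out each array in turn kept the calls of the 7 markers on their side of the threshold. The log2 fold change of CD44 then lay between 0.46 and 0.57 (highest adjusted p 0.0370), that of BMI1 between 0.62 and 0.67 (0.0117) and that of POU5F1 (NM_203289) between 0.61 and 0.77 (0.0202). For KLF4 the estimate ran between 0.03 and 0.27 and for CD24 between -0.12 and -0.01. When features whose mean reached the median of all values in neither group were left out, BMI1, POU5F1 and KLF4 were no longer tested, and 1 marker, CD44, passed.

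**Figure D3:**
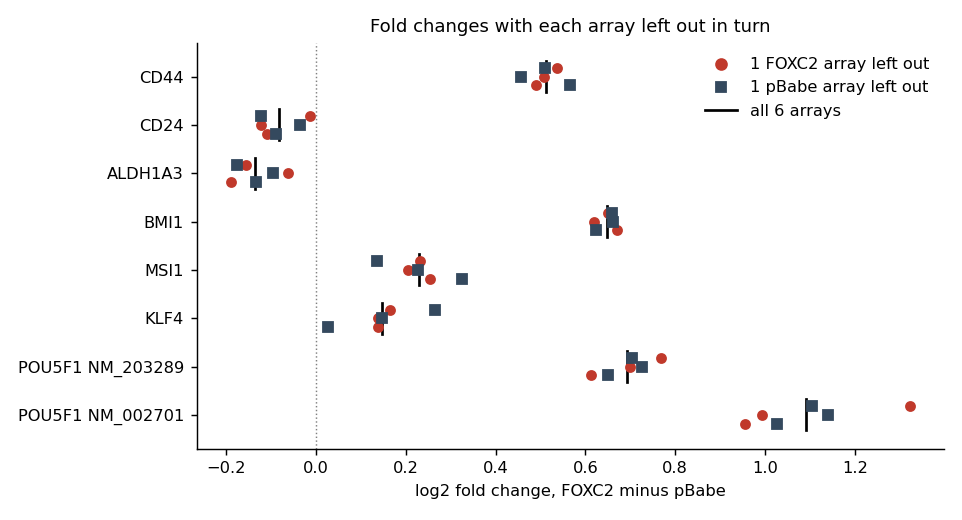
log2 fold change, FOXC2 minus pBabe, of each feature with 1 array left out (red circles for FOXC2 arrays, dark squares for pBabe arrays) and with all 6 arrays (black line). POU5F1 NM_002701 moves most when FOXC2 replicate 1 is left out, to 1.32, and KLF4 lies at 0.03 without pBabe replicate 3.

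The array read FOXC2 as higher in the cultures labelled with the construct, at 8777, 8262 and 8344 in FOXC2 cultures, against 2319, 2323 and 2818 in pBabe cultures (log2 fold change 1.77 ± 0.107, SE). Array pairs of a group correlated at 0.987 to 0.990 (Pearson, across features, which are no replicates) and pairs from different groups at 0.958 to 0.964. Of 3 simple epithelial keratins, KRT19 rose by 1.06 and KRT18 had a log2 fold change of -0.30 that passed on all 6 arrays (limma adjusted p 0.0353) but not with any 1 array left out (0.0672 to 0.102), while its other feature did not pass (-0.19, limma adjusted p 0.296). Their summed intensity was 61162 to 65083 in FOXC2 cultures, against 64897 to 69775 in pBabe cultures.

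Other surface markers of intestinal and mesenchymal stem cells moved in both directions. The shares and the median to read each list against are those over all named genes, 14.1% higher, 14.3% lower and a median log2 fold change of 0.03. Of 15 measured out of 25 listed, 4 rose and 5 fell (median log2 fold change 0.22). EPCAM, the adhesion molecule used beside CD44 to sort colorectal cancer cells, had intensities of 3840, 3561 and 3454 in FOXC2 cultures, against 707, 689 and 738 in pBabe cultures, a log2 fold change of 2.35. The efflux pump ABCB1 rose by 2.21. The TGF-beta co-receptor endoglin, ENG, had intensities of 270, 276 and 356 in FOXC2 cultures, against 2655, 2685 and 2705 in pBabe cultures, a log2 fold change of -3.17. The neural adhesion molecule NCAM1 had intensities of 87.2, 71.0 and 76.2 in FOXC2 cultures, against 734, 654 and 610 in pBabe cultures. Its FOXC2 values lay near the lowest value of the table, so its log2 fold change of -3.09 depends on readings at the low end. For these 4 genes the highest limma adjusted p was 2.02e-04. CXCR4, EPHB3 and LRIG1, named after their values were seen, also fell. Their log2 fold changes were -1.94, -1.05 and -0.87 (limma adjusted p 7.8e-05, 0.00389 and 0.00461). NT5E, named in the same way, rose by 1.86 (limma adjusted p 2.83e-04). PROM2, the sister gene of PROM1, was named after its value was seen. It had intensities of 123, 106 and 98.8 in FOXC2 cultures, against 77.7, 81.7 and 76.2 in pBabe cultures, also at the low end, and rose by 0.47 (limma adjusted p 0.0198). It did not pass without FOXC2 replicate 2 or pBabe replicate 1 or 3 (0.0520 to 0.0581), with the replicate block (0.0529) or with a trended robust prior (0.204).

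Of 4 fibroblast markers measured out of 8, 3 fell and COL3A1 did not pass. COL1A1 fell by 2.22, with intensities of 580, 486 and 530 in FOXC2 cultures, against 2116, 2795 and 2551 in pBabe cultures, and PDGFRB fell by 2.37. DCN, with values of 50.2 to 77.0 in FOXC2 cultures, against 201 to 323 in pBabe cultures, fell by 1.94 on the kept feature, and its other features had log2 fold changes of -1.22, -1.02 and -0.48, the last of which did not pass (limma adjusted p 0.213). COL3A1 went the other way, at 152, 105 and 122 in FOXC2 cultures, against 103, 99.3 and 88.9 in pBabe cultures (log2 fold change 0.37, limma adjusted p 0.116). The summed intensity of the 4, most of it COL1A1, was 821 to 1009 in FOXC2 cultures, against 3290 to 4095 in pBabe cultures. Of 2 leukocyte markers, CD3D fell by 3.12, with values of 72.4 to 94.7 in FOXC2 cultures, against 675 to 813 in pBabe cultures. As for DCN, its FOXC2 values lay near the lowest value of the table, and the size of the fall depends on them. CD68 did not pass (0.40, limma adjusted p 0.0685), at 1501 to 1983 in FOXC2 cultures, against 1149 to 1343 in pBabe cultures. The summed intensity of the 2 leukocyte markers was 1589 to 2078 in FOXC2 cultures, against 1861 to 2157 in pBabe cultures. CD68 passed with dim features left out (0.0123) or with a trended robust prior (0.0160). The single endothelial marker measured, CLDN5, rose by 0.98, at values near the bottom of the table of 115 to 199 in FOXC2 cultures, against 65.8 to 101 in pBabe cultures. It no longer passed without FOXC2 replicate 1 or 3 or pBabe replicate 1 or 3 (0.0650 to 0.0783). The part of other cells in these values was not tested.

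Of the genes found inside or secreted by intestinal stem cells, 6 rose, 2 fell and 8 did not pass, of 16 measured out of 19 (median 0.37). The count of falls was 1 without FOXC2 replicate 2 or 3 or pBabe replicate 2 or 3, and with the replicate block. With dim features left out, or with a trended robust prior, 5 rose and 4 fell. ASCL2, the WNT-driven master factor of crypt stem cells, had intensities of 3136, 2639 and 3102 in FOXC2 cultures, against 582, 854 and 1018 in pBabe cultures, a log2 fold change of 1.89 ± 0.208 (SE; limma adjusted p 0.00122). PHLDA1, an early response gene found in crypt stem cells, rose by 1.90 ± 0.0826 (SE), and TERT, the catalytic subunit of telomerase, by 1.56 ± 0.225 (SE; limma adjusted p 0.00361). KCNE3, a potassium channel subunit of the gut, rose by 0.75 but no longer passed with a trended robust prior (0.0702), and its intensities were 75.7 to 104 in FOXC2 cultures, against 51.6 to 60.7 in pBabe cultures. The 2 that fell, NKD1 and SP5, were named after their values were seen. Their log2 fold changes were -0.62 (limma adjusted p 0.0049) and -0.59 (0.027). The receptor LGR5 was not analysed here.

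The pluripotency genes around POU5F1 split. Of 17 measured out of 30, 6 rose and 4 fell (median 0.39). The count of rises was 3 without FOXC2 replicate 2 or 3 and with the replicate block, 4 without pBabe replicate 1 or 3 and 2 with dim features left out, whereas 4 fell with any 1 array left out. SOX2, the partner of POU5F1 on DNA, had intensities of 529, 519 and 611 in FOXC2 cultures, against 273, 287 and 263 in pBabe cultures, a log2 fold change of 1.01 ± 0.0995 (SE; limma adjusted p 7.92e-04). ESRRB, an orphan nuclear receptor of the naive state in mouse, rose by 2.29 and KLF5 by 0.47, although KLF5 no longer passed without FOXC2 replicate 2 (0.0526) or 3 (0.0619). In contrast LIN28A, which blocks maturation of the let-7 miRNAs, had intensities of 1447, 1253 and 1268 in FOXC2 cultures, against 5359, 5325 and 5413 in pBabe cultures, a log2 fold change of -2.02 ± 0.0923 (SE). SALL4, a zinc finger factor of embryonic stem cells, fell by 2.50. Its values, 140 to 161 in FOXC2 cultures, against 807 to 870 in pBabe cultures, were all below their array's median. NANOG was near the bottom of the table, at 114, 56.6 and 107 in FOXC2 cultures, against 118, 144 and 92.5 in pBabe cultures, and did not pass (log2 fold change -0.40, limma adjusted p 0.356). Of the factors POU5F1, SOX2, NANOG and KLF4, the first and second passed and were higher, while the others overlapped between the groups.

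**Figure D4:**
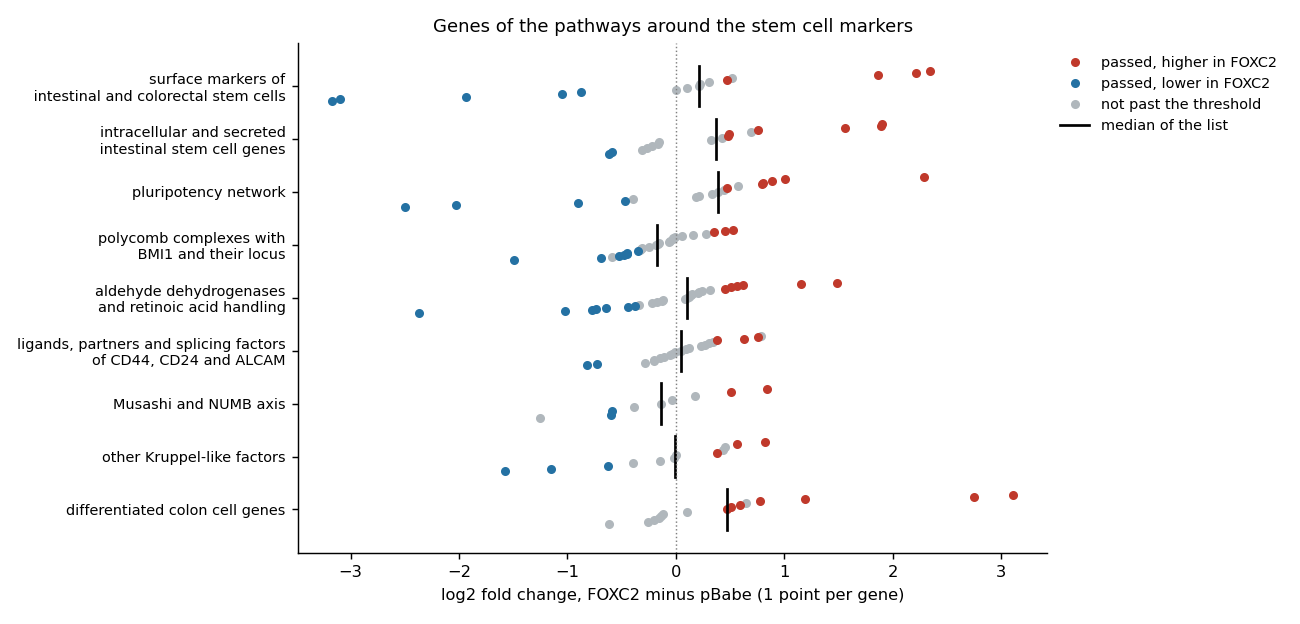
log2 fold change, FOXC2 minus pBabe, of the measured genes of 9 lists around the markers. Each point is a gene (red passed and higher, blue passed and lower, grey not past the threshold), and the black line is the list's median, which runs from -0.17 for the polycomb list to 0.47 for differentiated colon genes.

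BMI1 rose, while more of the other polycomb genes passed as lower than as higher. Of 26 measured out of 31, 3 rose and 7 fell (median -0.17). The rises were not stable as calls: with any 1 array left out 0 or 1 passed as higher, and with the replicate block 0 did. The count of falls was 4 without FOXC2 replicate 1 or 2 or pBabe replicate 1 and with the replicate block, and 5 or 6 without each of the other arrays. RYBP, a subunit of variant polycomb repressive complexes 1 that takes the place of the CBX proteins, had intensities of 989, 1047 and 1031 in FOXC2 cultures, against 3056, 2624 and 2954 in pBabe cultures, a log2 fold change of -1.49 ± 0.0940 (SE; limma adjusted p 1.39e-04). JARID2, a cofactor of polycomb repressive complex 2, fell by 0.53 (limma adjusted p 0.0142). PHC3 fell by 0.69 and CBX6 rose by 0.52 on all arrays. PHC3 passed without pBabe replicate 3 and not with any of the other 5 arrays left out (0.0566 to 0.0866). CBX6 passed without pBabe replicate 2 and not with any of the other 5 left out (0.0522 to 0.102). The methyltransferase EZH2 stayed at 2506, 2460 and 2419 in FOXC2 cultures, against 2535, 2532 and 2583 in pBabe cultures (log2 fold change -0.05, 95% confidence interval -0.24 to 0.13). CDKN2A, a cell cycle inhibitor locus that BMI1 is known to repress, was named after its value was seen: it fell by 0.45 ± 0.0894 (SE; limma adjusted p 0.0122). A link between this fall and BMI1 was not tested.

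Aldehyde dehydrogenases and genes of retinoic acid handling passed in both directions around ALDH1A3. Of 27 measured out of 37, 6 rose and 7 fell (median 0.10), and 3 rose without FOXC2 replicate 2. ALDH3A1, which clears aldehydes and is part of the dioxin-inducible battery, had intensities of 9557, 8332 and 10026 in FOXC2 cultures, against 3011, 3286 and 3720 in pBabe cultures, a log2 fold change of 1.48 ± 0.119 (SE; limma adjusted p 3.51e-04). The mitochondrial enzyme ALDH4A1 rose by 1.15. The mitochondrial enzymes ALDH1B1 and ALDH2 were named after their values were seen: ALDH1B1 rose by 0.62 ± 0.101 (SE; limma adjusted p 0.00598), and ALDH2 did not pass (0.12, limma adjusted p 0.463). The retinol carrier RBP4 fell by 2.36, at 92.7 to 138 in FOXC2 cultures, against 547 to 675 in pBabe cultures, and CYP26B1, which degrades retinoic acid, by 1.03 (limma adjusted p 0.00110). ALDH1A2 and RARB were not analysed here.

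Of the ligands and partners of CD44, CD24 and ALCAM, 3 rose and 2 fell, of 21 measured out of 27 (median 0.05), so that 23.8% passed where 28.4% of all named genes did. Only 1 rose without FOXC2 replicate 2 or 3 or pBabe replicate 1 or 3, and only 1 fell without each array other than FOXC2 replicate 3. The hyaluronidase HYAL2 fell by 0.82 ± 0.114 (SE; limma adjusted p 0.00316). HYAL3 fell by 0.73, and its call was kept only without FOXC2 replicate 3, with adjusted p of 0.0592 to 0.102 for each of the other arrays left out. SPP1 (osteopontin), a secreted ligand of CD44, rose by 0.63 and had 3 features that all passed. The kept feature no longer passed without FOXC2 replicate 2 or 3 or pBabe replicate 1 or 3 (0.0590 to 0.0795). STAB2, a hyaluronan receptor, rose by 0.75, at 113 to 123 in FOXC2 cultures, against 66.6 to 72.8 in pBabe cultures. ESRP1, the epithelial splicing regulator of CD44, did not pass (0.79 ± 0.293, SE; limma adjusted p 0.0919), with overlapping groups, but did without FOXC2 replicate 1 (0.0440) or with a trended robust prior (0.0290).

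Around MSI1, 2 of 9 measured genes rose and 2 fell (median -0.14), with 1 falling without FOXC2 replicate 2 or pBabe replicate 2 and 3 without FOXC2 replicate 1. NUMB, a NOTCH inhibitor whose translation Musashi proteins repress, rose by 0.51 ± 0.0819 (SE; limma adjusted p 0.00555), with intensities of 3620, 3751 and 3551 in FOXC2 cultures, against 2628, 2593 and 2455 in pBabe cultures. NOTCH1 rose by 0.84 and the NOTCH target HES1 fell by 0.60. NOTCH2 and NOTCH3, named after their values were seen, did not pass (-0.38 and -1.26, limma adjusted p 0.0528 and 0.0569). For both, every FOXC2 array lay below every pBabe array. The cell cycle inhibitor CDKN1A fell by 0.59 and no longer passed without FOXC2 replicate 2 or pBabe replicate 1 or 2 (0.0601 to 0.0711). MSI2 did not pass, and its 2 features had log2 fold changes of -0.14 and 0.15.

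Of 12 other Kruppel-like factors measured out of 14, 3 rose and 3 fell (median -0.01). The count of rises was 0 without FOXC2 replicate 3 or with the replicate block, 1 without FOXC2 replicate 1 or pBabe replicate 3 and 2 without each of the other arrays, while 3 or 4 fell each time. KLF7 fell by 1.58, KLF9 by 1.16 and KLF11 by 0.63, each with a limma adjusted p of at most 0.00698. KLF15 rose by 0.82, a call lost without FOXC2 replicate 1 or 3 or pBabe replicate 1 or 3 (0.0525 to 0.0663). Genes of differentiated colon cells, the fate in which KLF4 is high in tissue, rose in 7 and fell in 0 of 15 measured out of 26 (median 0.47). With 1 array left out 5 to 7 rose and 0 fell, and with dim features left out 4 rose and 1 fell. The brush border protein VIL1 rose by 3.11, the enteroendocrine granule protein CHGA by 2.74 and the gut homeobox factor CDX2 by 1.19. The hormone GUCA2B rose by 0.77. Its estimate stayed between 0.69 and 0.80 without FOXC2 replicate 1 or 3 or pBabe replicate 3, but the adjusted p was then 0.0504 to 0.0696. Of the 8 that did not pass, MUC2, TFF3 and SPDEF had log2 fold changes of -0.20, -0.62 and -0.26, and CA2 and ALPI of 0.10 and 0.65. They were named after their values were seen. KRT20 was not analysed here.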

How the data were processed

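Total RNA of 6 cultures was hybridised to NimbleGen arrays in 1 colour (Cy3), per the labels' protocols. The authors' deposited intensities are linear and were made with RMA, per the submitters' processing notes, without stated settings. RMA as usually run makes arrays alike, so a shift shared by all transcripts would not be seen. Features were named from the platform annotation (13730 with 1 symbol, 0 with several, 19767 with none). Log2 intensities without offset were fitted in limma 3.58.1 (R 4.3.3, lmFit and eBayes), a step tested on simulated data. Gene order and promoters came from RefSeq GRCh38.p14.

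The markers and lists were chosen with earlier results of these data known. Beside the markers, FOXC2 and a fixed set of partners, the text names per list up to 4 passing genes with the largest change and, where fewer than 2 passed, the next by p; neighbours of the markers were added. The number of arrays limits precision, and scan batches were not used. Comparing ALDH1A1 with ALDH1A3 and PROM1 with ALCAM was planned and not possible. Values were recomputed under 9 other settings and with each array left out.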

Additional observations from a re-analysis of the deposited data

How the results depend on the processing

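The other settings covered normalization (quantile, or centred medians), a replicate block, a filter on dim features, a prior with trend and robustness, weights per array, 16 added before taking logs, and a gene represented by the mean or the lowest of its features; each array was also left out once. The 7 markers, the second POU5F1 feature and FOXC2 kept direction and side of the threshold in 61 of 61 fits where they were tested and in 54 of 54 with an array left out. With dim features left out, 1 marker remained higher, since 3 were not tested. With 1 array left out, 3 markers were higher each time, the features higher 2732 to 3518 (against 4450 on all arrays) and the list genes higher 25 to 37 (against 42), each lowest without FOXC2 replicate 3. Same-numbered cultures did not deviate together (correlations of deviations -0.10, -0.12 and -0.06), so the numbers were not taken as pairs; with the replicate block 2917 features and 27 list genes were higher. Of 334 named-gene results under other settings, 318 kept their call, 11 lost it, 3 gained one and 2 turned, both of MSI2 (0.0040 with the mean of its features and 0.15 with the lower one). Of 294 with an array left out, 252 kept it, 41 lost it, 1 gained it and 0 turned. With the replicate block, PHC3, CBX6, HYAL3, CDKN1A, KLF15, KRT18, CLDN5 and KLF5 lost their calls (limma adjusted p 0.0634 to 0.110). Counts per list and direction moved by over 1.5 times in 27 of 234 cases under other settings and in 40 of 156 with an array left out. Signal over background was not assessed, which limits the dim genes BMI1, POU5F1 and KLF4 and dim genes of the lists, among them SOX2, TERT and ESRRB.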

Other observations

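The genes next to the markers were read as well. For each of the 7 measured markers the nearest measured protein-coding gene on either side was taken, in the gene order of RefSeq GRCh38.p14. Of these 14 neighbours, 2 were higher, 1 was lower and 11 did not pass, where 28.4% of all named genes passed. Both that were higher flank BMI1 on chromosome 10. SPAG6, a sperm flagellum protein, had a log2 fold change of 0.78 ± 0.0844 (SE; limma adjusted p 0.00112), close to the 0.65 of BMI1. Its values, 269, 283 and 274 in FOXC2 cultures, against 167, 152 and 161 in pBabe cultures, were all below their array's median. COMMD3, which is joined to BMI1 in a known read-through transcript, rose by 0.33 ± 0.0924 (SE; limma adjusted p 0.0417). The neighbour that was lower was SLC1A2, a glutamate transporter beside CD44 on chromosome 11, with a log2 fold change of -0.55 ± 0.123 (SE; limma adjusted p 0.0192), opposite to CD44. The neighbours of POU5F1 on chromosome 6, TCF19 and HLA-C, had log2 fold changes of -0.02 and -0.01 (limma adjusted p 0.935 and 0.943).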
